A study of Mus musculus with 9 samples.

Results

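The 38 genes described here carry glucose into a cell, convert it to pyruvate and lactate, and move lactate across the membrane. They also govern the conversion of pyruvate to acetyl-CoA and store glucose as glycogen. They were chosen by symbol, and all 38 were found among the 40213 symbols of the count files. RNA had been sequenced from wild-type ICR mouse primary calvarial pre-osteoblasts, the bone-forming precursor cells of the skull, isolated from 3-day-old pups and kept under normoxia. Ad-Hif1a cells were infected with an adenovirus carrying Hif1a and Ad-Hif2a cells with one carrying Hif2a (listed as Epas1), and Ad-C cells received the control adenovirus, with 3 libraries each. All 3 groups were infected on day 3 and held in osteogenic medium with 50 μg/ml ascorbic acid and 5 mM β-glycerophosphate until day 6, so each group carries an adenovirus and none is uninfected. No cell-type promoter is named for the adenovirus in the sources used here, so expression of the vectors was not limited to osteoblasts by any stated means. The labels do not say that the libraries of a group come from separate cultures, while the study's methods describe its n as independent experiments, so the p-values measure the spread between these samples. In bulk RNA, fewer cells of a type and less RNA per cell cannot be told apart.

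Glycolysis takes glucose to pyruvate through a chain of enzymes, and lactate dehydrogenase then turns pyruvate to lactate, which regenerates the NAD+ that the chain needs. Lactate leaves or enters through monocarboxylate transporters. Pyruvate dehydrogenase kinases switch off the mitochondrial enzyme that turns pyruvate into acetyl-CoA. HIF-1α and HIF-2α are the oxygen-regulated subunits of the hypoxia-inducible factors, and glycolytic genes are textbook targets, described in many cell types as answering to HIF-1α more than to HIF-2α. Osteoblasts are known for making lactate even when oxygen is present.

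Members of the HIF family bind a short core motif, ACGTG or GCGTG. It was searched on both strands in the 250 bases before each RefSeq transcription start (GRCm38.p6, an earlier build than the authors' GRCm39), with a palindromic CACGTG counted as 1 site. Of the 38 genes, 37 had a listed start. A match stood before at least 1 start in 31 of them (83.8%), against 59.6% of the 11104 tested genes with a listed start. A gene with more listed starts has more chances of a match. Counted per start, 71.9% of the 57 starts of these genes held a match, against 53.6% of the 14230 starts of tested genes. Matches stood before 9 of the 10 genes that rose with either vector, all 3 that fell and 19 of the 24 that passed neither way, so a match stood before most genes whether they passed or not. The sequences below are shown for the 4 genes with the largest rises (Slc16a1, Slc16a3, Slc2a1 and Pfkl), for Ldha, a textbook target, and for Pdk1 and Pdk3, which were lower. Each runs 5′ to 3′ on the gene's strand up to the base before the first listed start, and capitals mark the matches in either orientation. A match is a description of the letters, not a bound site.
Slc16a1: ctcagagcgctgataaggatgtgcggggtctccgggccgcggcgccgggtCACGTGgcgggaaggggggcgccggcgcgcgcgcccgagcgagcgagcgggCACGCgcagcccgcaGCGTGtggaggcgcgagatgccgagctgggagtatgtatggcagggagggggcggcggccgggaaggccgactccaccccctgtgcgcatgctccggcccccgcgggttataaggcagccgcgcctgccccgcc
Slc16a3: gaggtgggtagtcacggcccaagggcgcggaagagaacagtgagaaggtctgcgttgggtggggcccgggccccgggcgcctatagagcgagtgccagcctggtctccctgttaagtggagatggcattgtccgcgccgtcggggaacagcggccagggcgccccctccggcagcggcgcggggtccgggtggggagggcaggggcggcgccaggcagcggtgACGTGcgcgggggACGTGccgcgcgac
Slc2a1: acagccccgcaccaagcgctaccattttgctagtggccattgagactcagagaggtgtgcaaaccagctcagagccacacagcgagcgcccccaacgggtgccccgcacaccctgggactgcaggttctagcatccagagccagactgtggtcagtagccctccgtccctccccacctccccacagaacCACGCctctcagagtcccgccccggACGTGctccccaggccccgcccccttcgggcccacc
Pfkl: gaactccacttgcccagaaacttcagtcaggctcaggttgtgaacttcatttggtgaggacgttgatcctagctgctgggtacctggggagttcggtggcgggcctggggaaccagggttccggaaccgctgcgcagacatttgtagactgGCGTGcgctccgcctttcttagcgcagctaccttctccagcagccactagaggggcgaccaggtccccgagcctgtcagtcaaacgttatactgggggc
Ldha: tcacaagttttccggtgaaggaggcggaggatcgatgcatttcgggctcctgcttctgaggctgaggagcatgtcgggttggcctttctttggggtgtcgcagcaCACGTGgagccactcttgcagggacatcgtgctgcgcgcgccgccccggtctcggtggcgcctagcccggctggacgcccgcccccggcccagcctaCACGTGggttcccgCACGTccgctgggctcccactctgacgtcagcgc
Pdk1: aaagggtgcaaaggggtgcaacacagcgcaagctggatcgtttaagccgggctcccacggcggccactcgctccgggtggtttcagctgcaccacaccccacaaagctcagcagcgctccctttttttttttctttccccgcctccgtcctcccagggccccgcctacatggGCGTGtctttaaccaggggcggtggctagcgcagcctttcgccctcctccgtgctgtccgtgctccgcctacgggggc
Pdk3: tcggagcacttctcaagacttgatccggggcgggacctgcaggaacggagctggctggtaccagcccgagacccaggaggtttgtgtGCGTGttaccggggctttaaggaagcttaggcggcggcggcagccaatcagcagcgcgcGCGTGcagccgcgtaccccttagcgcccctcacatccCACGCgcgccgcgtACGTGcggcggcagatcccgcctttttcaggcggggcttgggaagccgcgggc
On the plus strand of GRCm38.p6 these windows lie at chr3:104638414-104638663 for Slc16a1, chr11:120948817-120949066 for Slc16a3, chr4:119108495-119108744 for Slc2a1, chr7:46845554-46845803 for Ldha and chr2:71872974-71873223 for Pdk1. On the minus strand they lie at chr10:78009808-78010057 for Pfkl and chrX:93832151-93832400 for Pdk3. Slc16a1 and Ldha held 3 matches each, Slc16a3 and Slc2a1 held 2 each and Pfkl held 1, whereas Pdk1 held 1 and Pdk3, which fell, held 4.

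The libraries were first checked against their labels. Hif1a was at 1240.3, 1929.6 and 2325 CPM (counts scaled to library size with TMM factors) in Ad-Hif1a libraries and 575, 585 and 447 in Ad-Hif2a libraries, against 193, 190.3 and 186 in Ad-C libraries. Epas1 was at 1996, 2181 and 823 CPM in Ad-Hif2a libraries and 407, 486 and 679 in Ad-Hif1a libraries, against 47.1, 41.9 and 48.8 in Ad-C libraries, so each factor was also above Ad-C under the other vector. Ad-Hif1a replicate 1 and Ad-Hif2a replicate 3 stood apart: each had the lowest levels of both Hif1a and Epas1 in its group. Mitochondrial genes took 2.84% and 2.71% of their counts, against 3.56% to 5.58% in the other 4 vector libraries and 5.73% to 6.17% in Ad-C. Macrophage markers summed to 1566 to 1699.9 CPM in Ad-Hif1a libraries and 1587 to 1872 in Ad-Hif2a libraries, against 3567 to 3843 in Ad-C libraries, with 9 and 8 of 14 markers lower by the test used here. Osteoblast markers summed to 59597 to 61852 CPM in Ad-Hif1a libraries and 52149 to 60943 in Ad-Hif2a libraries, against 67500.3 to 73063 in Ad-C libraries, most of it from collagen genes. Of 12 tested osteoblast markers 4 fell with Ad-Hif1a and 6 with Ad-Hif2a, Sp7, Alpl and Bglap among them under both, and 0 rose by edgeR. At an unadjusted p under 0.05 there were 0 and 2 higher and 7 and 8 lower (26.2% and 33.9% of all genes either way). DESeq2 called 0 and 1 risen, the 1 being Spp1, and 7 and 8 fallen. Spp1 was at 3862 to 5220 CPM in Ad-Hif1a libraries and 4016 to 6536 in Ad-Hif2a libraries, against 3494 to 3748 in Ad-C libraries. The scarcer Ibsp was also higher in every vector library than in any Ad-C library. Without both libraries that stood apart, Spp1 rose and 7 markers fell under each vector. Skeletal muscle markers summed to 17.5 to 25.0 CPM in Ad-Hif1a libraries and 15.3 to 29.2 in Ad-Hif2a libraries, against 77.0 to 93.3 in Ad-C libraries. Of the 23 muscle markers Myod1 and Cacna1s were at 0 in every library, and of 8 adipocyte markers Cidec and Lep were. Adipocyte markers summed to 77.2 to 85.4 CPM in Ad-Hif1a libraries and 79.9 to 108 in Ad-Hif2a libraries, against 138 to 165 in Ad-C libraries, most of it from Lpl. Of 4 tested, 3 fell under each vector. The other, Fabp4, was higher in all vector libraries and was called risen with Ad-Hif2a by edgeR and under both vectors by DESeq2. Endothelial markers summed to 14.7 to 15.3 CPM in Ad-Hif1a libraries and 11.5 to 15.6 in Ad-Hif2a libraries, against 9.36 to 10.8 in Ad-C libraries, and of 3 tested 1 rose with Ad-Hif1a while 2 rose and 1 fell with Ad-Hif2a. Neural and glial markers summed to 15.9 to 19.6 CPM and 12.1 to 17.8 in the vector groups, against 27.1 to 31.7 with Ad-C, with 1 and 3 of 6 lower by the test. Erythroid markers were at most 1.82 CPM in any library. The part of these other cells in the results was not tested. Over all genes tested edgeR called 6.04% risen and 5.22% fallen with Ad-Hif1a, and 7.87% and 7.72% with Ad-Hif2a. DESeq2 called 8.74% and 8.4%, and 12.7% and 11.8%. Without both libraries that stood apart edgeR called 14.2% and 13.4%, and 14.4% and 14.3%.

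Between Ad-Hif1a and Ad-C, 7 of the 38 genes rose and 1 fell at an adjusted p of 0.05, against 6.04% and 5.22% of the 14413 genes tested. For Ad-Hif2a the counts were 10 risen and 3 fallen, against a background of 7.87% and 7.72%. All 38 passed the filter on low counts. Glucose uptake (Slc2a1), the first kinase (Hk2), phosphofructokinase (Pfkl), Gapdh and both lactate transporters (Slc16a1 and Slc16a3) rose under each vector. So did Pygl, the liver-type glycogen phosphorylase, which was scarcer than the brain-type Pygb described below. Gpi1, Pkm and Ldha passed with Ad-Hif2a. Pdk3 fell under each vector, and Pfkfb4 and Pdk1 fell with Ad-Hif2a. The median log2 fold change of the 38 was 0.47 with Ad-Hif1a and 0.45 with Ad-Hif2a, beside 0.01 over all genes in both, and 25 and 26 of the 38 were above 0. These comparisons share the Ad-C libraries, so their likeness is not independent.

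The groups did not overlap for more genes than passed the test. All 3 Ad-Hif1a libraries were above all 3 Ad-C libraries for 20 of the 38, against 24.5% of all genes tested, and below them for 4, against 25.9%. With Ad-Hif2a 21 were above (24% of all genes) and 6 below (25.5%). At an unadjusted p under 0.05, 21 genes passed with Ad-Hif1a (26.2% of all genes) and 20 with Ad-Hif2a (33.9%). The counts of calls moved with single libraries: they were 2 or 3 risen and 0 fallen for both vectors without any 1 Ad-C library, where the share over all genes was also lower (2.06% to 2.68% risen and 0.937% to 1.64% fallen for Ad-Hif1a, and 2.89% to 3.95% and 1.79% to 2.93% for Ad-Hif2a). Without Ad-Hif1a replicate 1 the Ad-Hif1a counts were 3 risen and 0 fallen (3.21% and 1.82% of all genes), and those of Ad-Hif2a 9 and 1 (6.82% and 6.25%). Without Ad-Hif1a replicate 2 they were 2 and 0 for Ad-Hif1a (2.24% and 0.922%), and 4 and 1 for Ad-Hif2a (5.17% and 4.24%). Without Ad-Hif1a replicate 3 they were 17 and 1 for Ad-Hif1a (7.64% and 7.13%), and 13 and 3 for Ad-Hif2a (10.2% and 10.9%). Without Ad-Hif2a replicate 3 they were 20 and 3 for Ad-Hif1a (18.1% and 18.3%), and 11 and 4 for Ad-Hif2a (11.1% and 11.5%). The Ad-Hif2a counts were 4 and 1 without Ad-Hif2a replicate 1 (4.33% and 2.89%), and 6 and 1 without replicate 2 (6.6% and 6.48%). When both libraries that stood apart were left out, the Ad-Hif1a counts were 20 risen and 2 fallen (background 14.2% and 13.4%), and those of Ad-Hif2a 14 and 5 (14.4% and 14.3%). These libraries were picked for their values in these same data, so leaving them out lowers the spread within groups. The calls and p-values of that fit, here and below, are a description and give no further support. The fit without the replicate number as a block gave 14 risen and 1 fallen for Ad-Hif1a (8.53% and 7.98% of all genes), adding Pfkfb3, Pgk1, Eno1, Pkm, Ldha, Pgm1 and Gys1, and 13 and 3 for Ad-Hif2a (12.4% and 11.5%), adding Pfkfb3, Eno1 and Eno3. Their adjusted p without the block lay between 0.0179 and 0.0407.

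**Figure D1:**
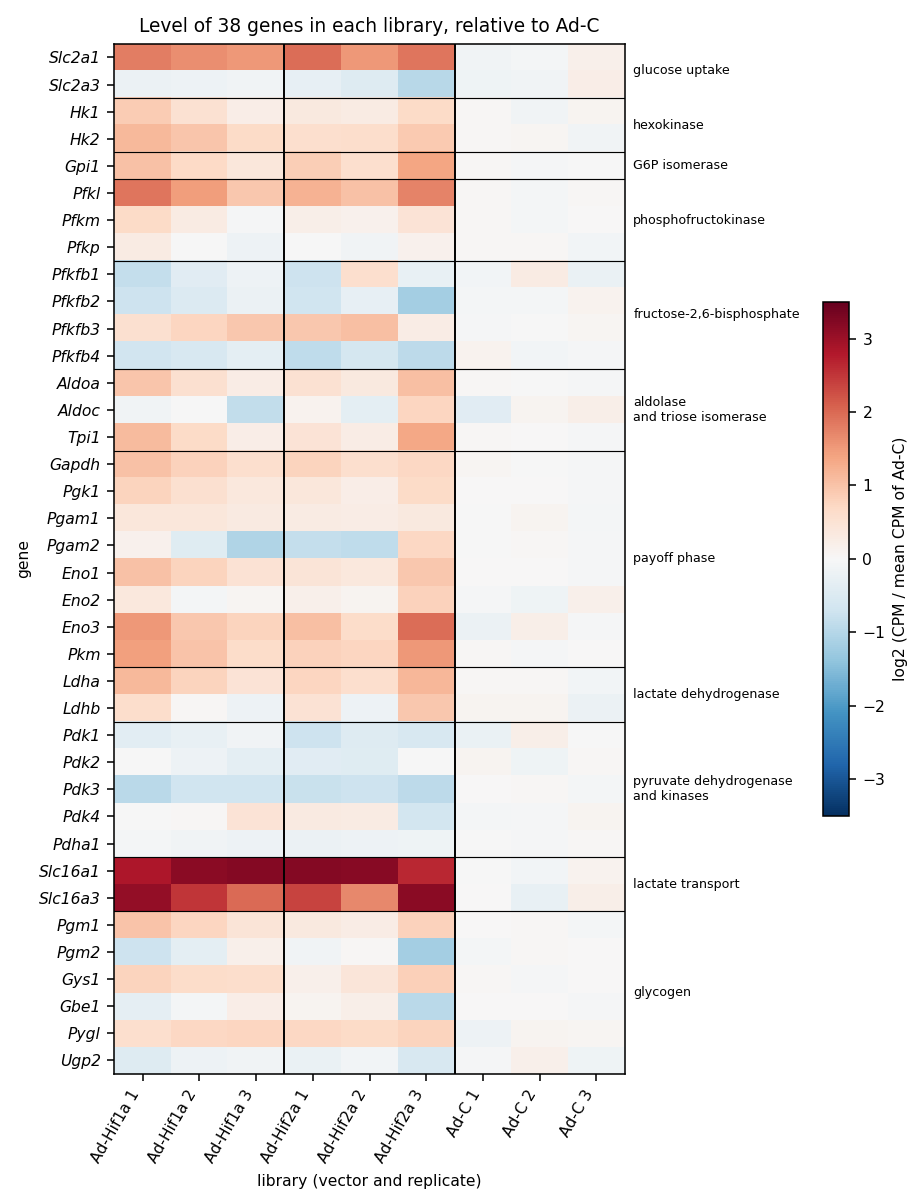
Level of each of the 38 genes in each library, as the log2 ratio of its CPM to the mean CPM of Ad-C; genes run down the page in pathway order and libraries run across, Ad-Hif1a, Ad-Hif2a, then Ad-C. Slc16a1 and Slc16a3 are the darkest genes in all 6 vector libraries, and Ad-Hif1a replicate 1 and Ad-Hif2a replicate 3 share a pattern that the other vector libraries show less.

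Lactate transport held the largest changes. Slc16a1 (MCT1), which carries lactate and pyruvate with a proton in either direction, was at 153, 191 and 201 CPM in Ad-Hif1a libraries and 201, 197 and 133 in Ad-Hif2a libraries, against 21.2, 20.1 and 23.3 in Ad-C libraries. The lowest vector library, Ad-Hif2a replicate 3, lay far above the highest Ad-C library. Its log2 fold change was 3.07 ± 0.23 (SE) with Ad-Hif1a and 3.03 ± 0.23 with Ad-Hif2a, or 8.42-fold and 8.18-fold (adjusted p = 0.000436 and 0.000388, edgeR). The call held for both vectors in all 20 alternative settings run, each left-out library included.

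Slc16a3 (MCT4), the exporter typical of lactate-producing cells and a known hypoxia-induced gene, was at 16.99, 11.3 and 7.89 CPM with Ad-Hif1a and 10.4, 6.46 and 17.8 with Ad-Hif2a, against 2.04, 1.68 and 2.30 with Ad-C. The groups did not overlap, but the vector libraries spread widely, with the high values in Ad-Hif1a replicate 1 and Ad-Hif2a replicate 3. The log2 fold change was 2.60 ± 0.41 with Ad-Hif1a and 2.47 ± 0.41 with Ad-Hif2a (adjusted p = 0.00863 for each). Without those libraries it was 2.40 ± 0.26 and 1.96 ± 0.27. Leaving out Ad-C replicate 1 or 3 ended both calls, and Ad-Hif1a replicate 2 that of Ad-Hif1a (adjusted p 0.0601 to 0.0729 with Ad-Hif1a and 0.0647 with Ad-Hif2a). Per kilobase of exon, Slc16a1 stood at 41.04 CPM with Ad-Hif1a, 39.9 with Ad-Hif2a and 4.86 with Ad-C, and Slc16a3 at 2.71, 2.60 and 0.451, so MCT1 was the more abundant transcript of this pair in every group.

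The rest of the lactate and proton machinery was counted from a list of 9 further genes, of which 8 were tested. For Ad-Hif1a 1 of them rose and 1 fell (6.04% and 5.22% of all genes tested), and for Ad-Hif2a 2 and 1 (7.87% and 7.72%). Emb (embigin), a chaperone that carries monocarboxylate transporters to the membrane, averaged 89.02 CPM with Ad-Hif1a and 91.8 with Ad-Hif2a, against 46.8 with Ad-C, a log2 fold change of 0.93 ± 0.13 and 0.97 ± 0.13 (adjusted p = 0.00505 and 0.00322). Car12, a carbonic anhydrase of the cell surface, rose with Ad-Hif2a (log2 fold change 2.28 ± 0.34, adjusted p = 0.00544) and was at 0.97 ± 0.35 with Ad-Hif1a (adjusted p = 0.128). It was scarce, averaging 6.16 CPM with Ad-Hif2a and 2.47 with Ad-Hif1a, against 1.27 with Ad-C. The gene that fell was Slc16a7 (MCT2), a high-affinity importer named after its values were seen, at −0.91 ± 0.16 and −0.96 ± 0.16 (adjusted p = 0.0126 and 0.00846). Leaving out both libraries that stood apart gave 3 risen and 1 fallen under each vector. Over all genes that fit called 14.2% risen and 13.4% fallen with Ad-Hif1a, and 14.4% and 14.3% with Ad-Hif2a.

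**Figure D2:**
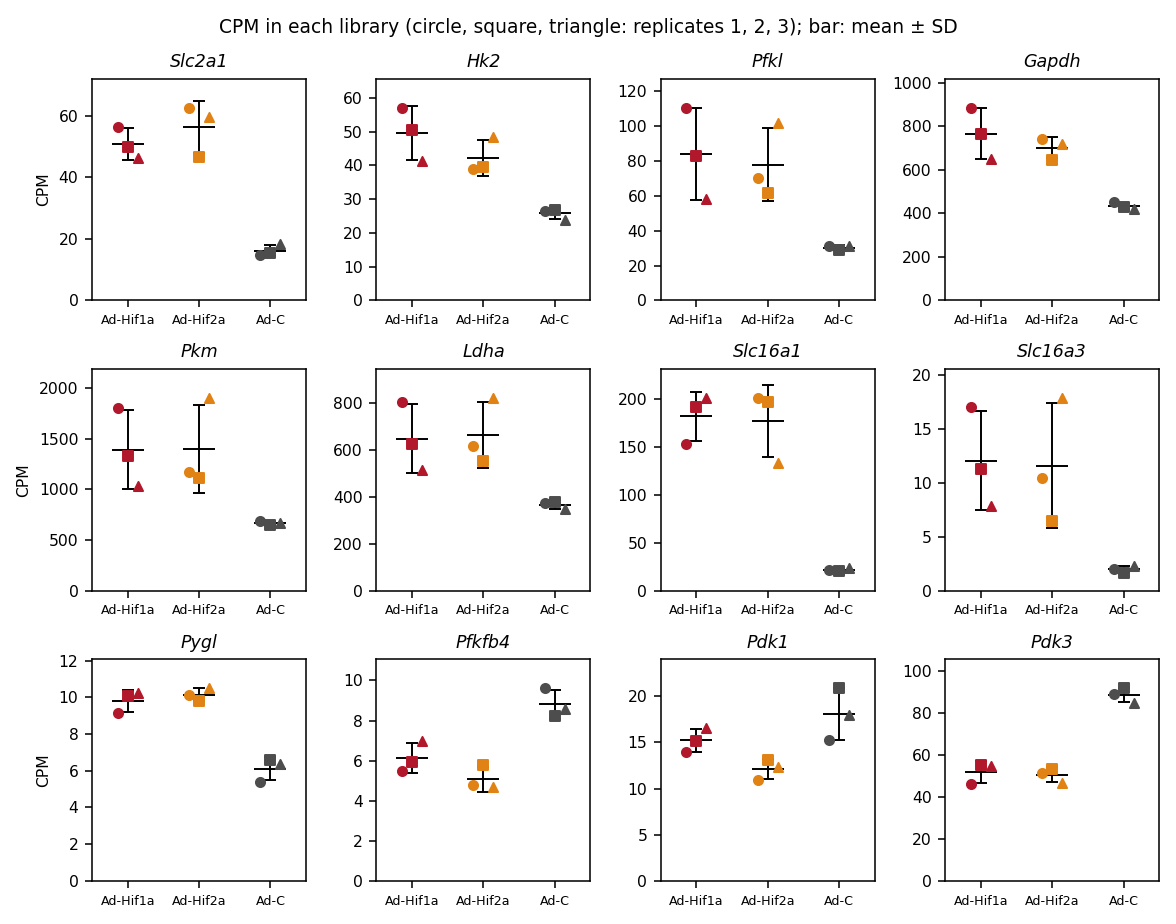
CPM of 12 genes in each library, from 0 on each axis, with Ad-Hif1a, Ad-Hif2a and Ad-C from left to right; circles, squares and triangles are replicates 1, 2 and 3, and bars give the mean ± SD of 3 libraries. For Slc16a1 all vector libraries lie between 133 and 201 CPM and all Ad-C libraries between 20.1 and 23.3, while for Pdk1 the Ad-Hif1a and Ad-C libraries overlap.

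At the entry of glucose, Slc2a1 (GLUT1), the widespread basal glucose transporter and a textbook HIF target, was at 56.5, 49.7 and 46.3 CPM in Ad-Hif1a libraries and 62.6, 46.6 and 59.6 in Ad-Hif2a libraries, against 14.9, 15.5 and 18.2 in Ad-C libraries. No vector library came near the Ad-C range. The log2 fold change was 1.65 ± 0.17 with Ad-Hif1a and 1.79 ± 0.17 with Ad-Hif2a (adjusted p = 0.00158 and 0.000947), and the gene was called risen for both vectors in all 20 alternative settings. Slc2a3 (GLUT3), the high-affinity transporter typical of neurons, was scarce at 3.07 ± 0.0903 CPM with Ad-Hif1a, 2.36 ± 0.557 with Ad-Hif2a and 3.43 ± 0.548 with Ad-C (SD, n = 3 each) and did not pass (adjusted p = 0.717 and 0.208, edgeR). Among 9 other glucose transporters, 7 were tested and 0 passed by edgeR under either vector. At an unadjusted p under 0.05 there was 1 with Ad-Hif1a (26.2% of all genes tested) and 2 with Ad-Hif2a (33.9%). DESeq2 called 0 with Ad-Hif1a and 1 risen with Ad-Hif2a, where it called 12.7% of all genes risen. The lowest adjusted p under each vector was that of Slc2a6, at a log2 fold change of 0.72 ± 0.29 with Ad-Hif1a and 0.92 ± 0.29 with Ad-Hif2a (adjusted p = 0.168 and 0.073), and the next lowest over both comparisons was that of Slc2a13 with Ad-Hif2a, a transporter of myo-inositol, at −0.63 ± 0.37 and −0.89 ± 0.37. Leaving out both libraries that stood apart gave 1 risen and 1 fallen under each vector. The shares over all genes were then 14.2% and 13.4% with Ad-Hif1a, and 14.4% and 14.3% with Ad-Hif2a.

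Hexokinases trap glucose as glucose-6-phosphate. Hk2, the inducible form, was at 57.1, 50.4 and 41.4 CPM with Ad-Hif1a and 38.98, 39.4 and 48.4 with Ad-Hif2a, against 26.6, 26.9 and 23.8 with Ad-C. The vector libraries all lay above Ad-C, and the log2 fold change was 0.94 ± 0.18 and 0.72 ± 0.18 (adjusted p = 0.0186 and 0.0386). The Ad-Hif1a call was lost without Ad-Hif1a replicate 1 or 2 or any 1 Ad-C library (adjusted p 0.0838 to 0.132), and the Ad-Hif2a call without Ad-Hif1a replicate 2, Ad-Hif2a replicate 1 or 2 or any 1 Ad-C library (0.0676 to 0.201). Hk1, the housekeeping form, averaged 173 ± 39.9 CPM with Ad-Hif1a and 159 ± 24.5 with Ad-Hif2a, against 117 ± 9.28 with Ad-C, and did not pass (adjusted p = 0.13 and 0.165). Per kilobase of exon Hk1 stayed the more abundant, at 35.7, 32.8 and 24.1 CPM in Ad-Hif1a, Ad-Hif2a and Ad-C, beside 8.84, 7.53 and 4.59 for Hk2.

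Gpi1, which isomerizes glucose-6-phosphate to fructose-6-phosphate, was at 251, 207 and 359 CPM in Ad-Hif2a libraries and 278, 224 and 180.1 in Ad-Hif1a libraries, against 143, 134 and 136 in Ad-C libraries. All vector libraries were above Ad-C, with Ad-Hif2a replicate 3 the highest. It rose with Ad-Hif2a (log2 fold change 0.97 ± 0.24, adjusted p = 0.0365) and was at 0.72 ± 0.24 with Ad-Hif1a (adjusted p = 0.107). Without Ad-Hif1a replicate 2, Ad-Hif2a replicate 1 or any 1 Ad-C library the Ad-Hif2a call was lost (adjusted p 0.0737 to 0.188).

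Phosphofructokinase commits sugar to glycolysis, and 1 of its 3 genes passed under each vector. Pfkl, the liver-type subunit, was at 110.4, 82.9 and 58.03 CPM with Ad-Hif1a and 70.01, 61.6 and 102 with Ad-Hif2a, against 30.9, 28.7 and 31.1 with Ad-C. The lowest vector library was well above the highest Ad-C library, and the log2 fold change was 1.46 ± 0.28 and 1.36 ± 0.28 (adjusted p = 0.0178 and 0.0182). The Ad-Hif1a call was lost without Ad-Hif1a replicate 1 or 2 or any 1 Ad-C library (adjusted p 0.073 to 0.125), and the Ad-Hif2a call without any 1 Ad-C library (0.0714 to 0.115). Pfkm, the muscle-type subunit, was at a log2 fold change of 0.32 ± 0.20 and 0.29 ± 0.20, and Pfkp, the platelet-type subunit, at 0.03 ± 0.16 and 0.01 ± 0.16, and neither passed (adjusted p from 0.327 to 0.97). Per kilobase of exon Pfkl had the lowest level of the 3 in Ad-C cells (8.10 CPM, beside 12.3 for Pfkm and 12.7 for Pfkp). It had the highest with each vector, at 22.5 CPM per kilobase in Ad-Hif1a and 20.8 in Ad-Hif2a, beside 15.5 and 15.01 for Pfkm and 13.1 and 12.8 for Pfkp. The order of these levels was not tested.

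The Pfkfb enzymes make and degrade fructose-2,6-bisphosphate, the strongest activator of phosphofructokinase, and their genes differed in direction. Pfkfb3, the form with the highest kinase activity and a textbook HIF target, was at 50.5, 58.04 and 66.1 CPM with Ad-Hif1a and 66.4, 72.02 and 41.6 with Ad-Hif2a, against 33.5, 33.9 and 36.3 with Ad-C. No vector library overlapped Ad-C, but the log2 fold change of 0.75 ± 0.23 and 0.78 ± 0.23 did not pass (adjusted p = 0.0847 and 0.0613). Its lowest vector libraries were Ad-Hif1a replicate 1 and Ad-Hif2a replicate 3. Without both, a choice made from these same data, it was at 0.82 ± 0.13 and 1.06 ± 0.13 (adjusted p = 0.000159 and 7.58e-06, as a description). Pfkfb4, known as hypoxia-induced in other cells, was lower: it was at 4.78, 5.77 and 4.66 CPM with Ad-Hif2a and 5.49, 5.93 and 6.96 with Ad-Hif1a, against 9.61, 8.24 and 8.55 with Ad-C. These groups did not overlap either, and the gene fell with Ad-Hif2a (log2 fold change −0.80 ± 0.20, adjusted p = 0.039) and was at −0.52 ± 0.20 with Ad-Hif1a (adjusted p = 0.152). The Ad-Hif2a call held only without Ad-Hif1a replicate 3 or Ad-Hif2a replicate 3 and was lost without any of the other 7 libraries (adjusted p 0.0504 to 0.229). Pfkfb2 averaged 14.5 ± 2.58 CPM with Ad-Hif1a and 12.5 ± 3.74 with Ad-Hif2a, against 20.01 ± 1.70 with Ad-C, with no overlap and adjusted p of 0.282 and 0.109. Pfkfb1 was under 3 CPM in every library.

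**Figure D3:**
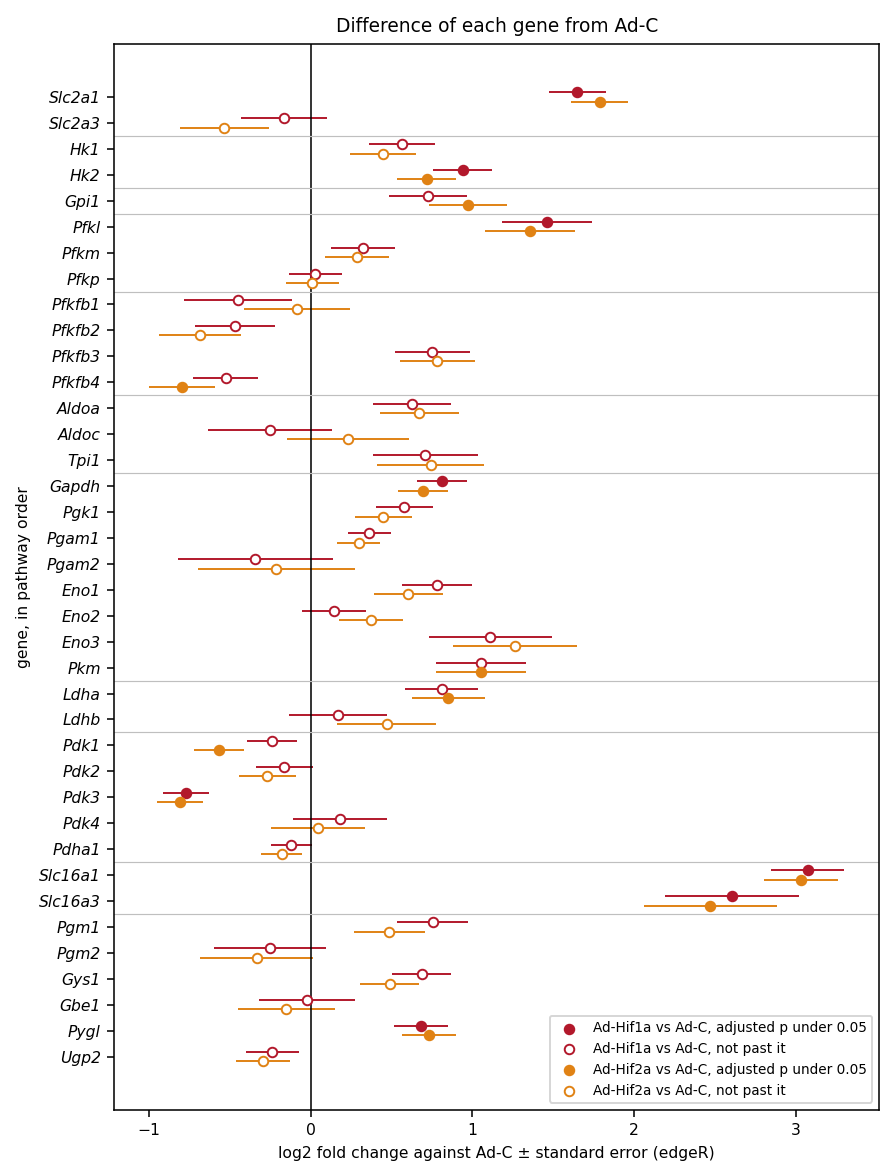
Log2 fold change against Ad-C with its standard error (edgeR) for each of the 38 genes in pathway order, with Ad-Hif1a above Ad-Hif2a; filled points passed an adjusted p of 0.05 and open points did not. The lactate transporters lie furthest to the right, at 2.47 to 3.07, and Pdk3 and Pfkfb4 furthest to the left among the filled points.

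In the middle of the chain, aldolase splits the hexose and triose phosphate isomerase interconverts its 3-carbon products. Aldoa averaged 605 ± 153 CPM with Ad-Hif1a and 624 ± 162 with Ad-Hif2a, against 389.97 ± 10.3 with Ad-C, and Tpi1 averaged 251 ± 74.3 and 261 ± 112, against 153 ± 4.94. All their vector libraries were above all Ad-C libraries, yet neither passed by edgeR (adjusted p from 0.107 to 0.222), with far larger SDs in the vector groups than in Ad-C. DESeq2 called Aldoa risen with Ad-Hif2a (adjusted p = 0.0466) and not with Ad-Hif1a (0.0938), and Tpi1 with neither. Aldoc, the brain form, stayed between 1.55 and 4.73 CPM in all libraries and did not pass.

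Gapdh, which oxidizes glyceraldehyde-3-phosphate, was at 885, 764 and 650.1 CPM with Ad-Hif1a and 739.997, 647 and 720.1 with Ad-Hif2a, against 451, 429.8 and 421 with Ad-C. The groups were clearly separated, and the gene rose with a log2 fold change of 0.81 ± 0.15 and 0.69 ± 0.15 (adjusted p = 0.0169 and 0.0238). The study normalized its quantitative PCR to Gapdh. The Ad-Hif1a call was lost without Ad-Hif1a replicate 1 or 2 or any 1 Ad-C library (adjusted p 0.087 to 0.152), and the Ad-Hif2a call without Ad-Hif1a replicate 2, Ad-Hif2a replicate 1 or any 1 Ad-C library (0.072 to 0.178). Gapdh is also the gene whose reads are hardest to place: 84.1% of the 31-base words of its transcript occur in other annotated genes.

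The enzymes after it were all higher in the vector groups where they are abundant, and by edgeR only Pkm passed, with Ad-Hif2a. DESeq2 called Eno1 risen under both vectors (adjusted p = 0.00984 and 0.0445), and Pkm too. It called Pgk1 and Pgam1 with Ad-Hif1a (adjusted p = 0.0295 and 0.0492) and not with Ad-Hif2a (0.0808 and 0.0866). Pgk1, which makes the first ATP of this phase, averaged 233 ± 33.4 CPM with Ad-Hif1a and 213 ± 32.8 with Ad-Hif2a, against 156 ± 3.22 with Ad-C (adjusted p = 0.0822 and 0.124). Pgam1 averaged 316 ± 10.8 and 301 ± 7.10 CPM, against 246 ± 13.3 (adjusted p = 0.14 and 0.166), and Eno1 695 ± 123 and 615 ± 137, against 404 ± 11.1 (adjusted p = 0.062 and 0.101). None of the 3 overlapped between either vector group and Ad-C. Pkm, the pyruvate kinase of most tissues other than liver, was at 1175, 1115 and 1900.2 CPM with Ad-Hif2a and 1806, 1330.03 and 1036 with Ad-Hif1a, against 683, 652 and 669.6 with Ad-C. The libraries that stood apart were the highest of their groups, and the lowest vector library was still well above Ad-C. Its log2 fold change was 1.05 ± 0.28 with Ad-Hif2a (adjusted p = 0.045) and 1.05 ± 0.28 with Ad-Hif1a (adjusted p = 0.0552). Without both libraries, a choice made from these same data, it was 0.73 ± 0.14 and 0.86 ± 0.13 (adjusted p = 0.00053 and 0.000117, as a description). The Ad-Hif2a call was lost without Ad-Hif1a replicate 2, Ad-Hif2a replicate 1 or 2 or any 1 Ad-C library (adjusted p 0.065 to 0.212). The counts are per gene, so the M1 and M2 splice forms of Pkm were not separated.

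The tissue-restricted forms of this phase were low. Eno3, the muscle enolase, averaged 7.41 ± 2.10 CPM with Ad-Hif1a and 8.55 ± 4.22 with Ad-Hif2a, against 3.41 ± 0.479 with Ad-C, with no overlap and adjusted p of 0.117 and 0.0671. Eno2, the neuronal enolase, averaged 19.8 ± 3.09 and 23.6 ± 6.64 CPM, against 18.01 ± 2.03. Pgam2, the muscle mutase, depended on the libraries that stood apart: it was at 20.6, 13.7 and 8.95 CPM with Ad-Hif1a and 10.4, 9.95 and 30.5 with Ad-Hif2a, against 18.3, 19.01 and 18.1 with Ad-C. In those libraries it was above Ad-C and in the other 4 below it. Its log2 fold change was −0.34 ± 0.48 and −0.21 ± 0.49 with all libraries. Without those picked out from these same data it was −0.69 ± 0.18 and −0.94 ± 0.18 (adjusted p = 0.00902 and 0.000855, as a description). The summed skeletal muscle markers, given above, were lower in every vector library than in any Ad-C library, and of 8 tested markers 2 rose and 4 fell under each vector. Their part in Pgam2 was not tested.

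Lactate dehydrogenase closes the chain. Ldha, whose subunit favours pyruvate reduction to lactate, was at 619.9, 553 and 823 CPM in Ad-Hif2a libraries and 807, 627 and 516 in Ad-Hif1a libraries, against 376, 381 and 347 in Ad-C libraries. All vector libraries were above Ad-C, and the gene rose with Ad-Hif2a (log2 fold change 0.85 ± 0.23, adjusted p = 0.0445) and was at 0.81 ± 0.23 with Ad-Hif1a (adjusted p = 0.0639). Without those that stood apart, a choice made from these same data, it was at 0.61 ± 0.13 and 0.69 ± 0.13 (adjusted p = 0.00144 and 0.00052, as a description). The Ad-Hif2a call was lost without Ad-Hif1a replicate 2, Ad-Hif2a replicate 1 or 2 or any 1 Ad-C library (adjusted p 0.061 to 0.221). Ldhb, the heart-type subunit, was at a log2 fold change of 0.17 ± 0.30 and 0.47 ± 0.31 and did not pass. Per kilobase of exon Ldha stood at 343, 351 and 194 CPM in Ad-Hif1a, Ad-Hif2a and Ad-C, beside 18.02, 22.2 and 15.7 for Ldhb.

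At the step from pyruvate to acetyl-CoA the kinases were lower or did not pass. Pdk3, a pyruvate dehydrogenase kinase, was at 45.999, 55.02 and 54.5 CPM with Ad-Hif1a and 51.5, 53.4 and 46.8 with Ad-Hif2a, against 89.2, 91.7 and 84.7 with Ad-C. The highest vector library was well below the lowest Ad-C library, and the log2 fold change was −0.77 ± 0.14 and −0.81 ± 0.14 (adjusted p = 0.0147 and 0.0099). Leaving out any 1 Ad-C library ended both calls, and Ad-Hif1a replicate 1 or 2 that of Ad-Hif1a (adjusted p 0.0819 to 0.126 for Ad-Hif1a and 0.0557 to 0.0947 for Ad-Hif2a). Pdk1, the kinase best known as a HIF-1 target, was at 10.97, 13.1 and 12.3 CPM with Ad-Hif2a and 13.99, 15.1 and 16.5 with Ad-Hif1a, against 15.3, 20.9 and 18.02 with Ad-C. The Ad-Hif2a libraries lay below both other groups, while the Ad-Hif1a and Ad-C libraries overlapped. Pdk1 fell with Ad-Hif2a (log2 fold change −0.57 ± 0.16, adjusted p = 0.0482) and was at −0.24 ± 0.15 with Ad-Hif1a (adjusted p = 0.364). That call was lost without any library except Ad-Hif1a replicate 3 or Ad-Hif2a replicate 3 (adjusted p 0.0765 to 0.186). Pdk2 and Pdk4 were at log2 fold changes of −0.16 ± 0.18 and 0.18 ± 0.29 with Ad-Hif1a and −0.27 ± 0.18 and 0.05 ± 0.29 with Ad-Hif2a. Pdha1, the catalytic subunit that these kinases phosphorylate, averaged 156 ± 5.49 CPM with Ad-Hif1a and 149.8 ± 1.65 with Ad-Hif2a, against 169.6 ± 3.98 with Ad-C, with no overlap and adjusted p of 0.58 and 0.344.

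Of 26 further genes of pyruvate entry and the TCA cycle, all tested, 0 rose and 1 fell under each vector by edgeR. At an unadjusted p under 0.05 there were 1 higher and 2 lower with Ad-Hif1a (26.2% of all genes either way), and 2 and 2 with Ad-Hif2a (33.9%). By DESeq2 1 rose and 2 fell for each, where 8.74% and 8.4% of all genes did with Ad-Hif1a, and 12.7% and 11.8% with Ad-Hif2a. The gene that fell by edgeR was Pdp1, the phosphatase that undoes the work of the kinases. It was at 12.8, 14.4 and 11.7 CPM with Ad-Hif1a and 10.9, 12.1 and 9.10 with Ad-Hif2a, against 39.9, 41.6 and 39.03 with Ad-C. Its groups did not overlap, and the log2 fold change was −1.64 ± 0.15 and −1.92 ± 0.15 (adjusted p = 0.000911 and 0.000409), larger in size than that of any of the 4 kinases. Idh2, a mitochondrial isocitrate dehydrogenase, was next in adjusted p, at −0.51 ± 0.14 and −0.47 ± 0.14 (adjusted p = 0.0581 and 0.06, edgeR). DESeq2 called it fallen under both vectors. Leaving out both libraries that stood apart gave 1 risen and 2 fallen for Ad-Hif1a (14.2% and 13.4% of all genes), and 1 and 3 for Ad-Hif2a (14.4% and 14.3%). Among 17 further isozymes and gluconeogenic genes, 7 were tested and 1 rose under each vector (6.04% and 7.87% of all genes). It was Pcx, the pyruvate carboxylase that makes oxaloacetate, at 111 CPM with Ad-Hif1a and 121 with Ad-Hif2a, against 42.6 with Ad-C (log2 fold change 1.39 ± 0.22 and 1.497 ± 0.22, adjusted p = 0.00778 and 0.00468). Bpgm, which makes 2,3-bisphosphoglycerate, was at 0.03 ± 0.19 and 0.59 ± 0.19. With both libraries left out 2 of these genes rose for Ad-Hif1a and 3 for Ad-Hif2a, and 1 fell for each. The shares over all genes in that fit are those just given for it.

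Of the 6 glycogen genes 1 passed, and it rose under both vectors. Pygl, the liver-type phosphorylase that releases glucose-1-phosphate from glycogen, was at 9.12, 10.1 and 10.3 CPM with Ad-Hif1a and 10.1, 9.77 and 10.5 with Ad-Hif2a, against 5.41, 6.56 and 6.36 with Ad-C. The groups did not overlap, and the vector libraries were close together. The log2 fold change was 0.68 ± 0.17 and 0.73 ± 0.17 (adjusted p = 0.0412 and 0.0265). With Ad-Hif1a the call held only without Ad-Hif2a replicate 3 (adjusted p 0.0617 to 0.262 otherwise), and with Ad-Hif2a only without Ad-Hif1a replicate 3 or Ad-Hif2a replicate 3 (0.0501 to 0.185 otherwise). Gys1, the glycogen synthase outside liver, averaged 60.04 ± 3.31 CPM with Ad-Hif1a and 52.9 ± 12.1 with Ad-Hif2a, against 37.4 ± 1.04 with Ad-C (adjusted p = 0.0538 and 0.111). Pgm1 averaged 72.8 ± 14.2 and 60.4 ± 13.3 CPM, against 43.1 ± 1.86 (adjusted p = 0.0739 and 0.165), also without overlap. Pgm2, Gbe1 (the branching enzyme) and Ugp2 (which makes UDP-glucose) were at log2 fold changes of −0.33 to −0.02 and did not pass. The symbols Pgm1 and Pgm2 have been exchanged between mouse annotation releases, so the protein behind each follows the authors' annotation.

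Of 21 further glycogen genes 18 were tested, and 0 rose by edgeR. For Ad-Hif1a 1 fell (5.22% of all genes tested), and for Ad-Hif2a 4 fell (7.72%). At an unadjusted p under 0.05 there were 2 higher and 5 lower with Ad-Hif1a (26.2% of all genes either way), and 3 and 5 with Ad-Hif2a (33.9%). DESeq2 called 1 risen and 4 fallen with Ad-Hif1a (8.74% and 8.4% of all genes), and 2 and 5 with Ad-Hif2a (12.7% and 11.8%). Gyg (glycogenin), the primer on which glycogen is built, averaged 28.4 CPM with Ad-Hif1a and 31.6 with Ad-Hif2a, against 52.6 with Ad-C (log2 fold change −0.88 ± 0.17 and −0.74 ± 0.17, adjusted p = 0.0179 and 0.0272). Phkb, a subunit of phosphorylase kinase, was at −0.77 ± 0.20 with Ad-Hif1a and −0.95 ± 0.21 with Ad-Hif2a (adjusted p = 0.0567 and 0.0227). Phka2, another subunit of that kinase, and Pygb, the brain-type phosphorylase, were the other 2 that fell with Ad-Hif2a by edgeR. They are named after their values were seen (log2 fold change −0.94 ± 0.21 and −0.64 ± 0.16). Pygb was thus lower with Ad-Hif2a (adjusted p = 0.0362) where Pygl was higher. It averaged 114 CPM with Ad-Hif1a and 103 with Ad-Hif2a, against 161 with Ad-C, far above Pygl in each group. With Ad-Hif1a it was at −0.50 ± 0.16 (adjusted p = 0.095, edgeR), and DESeq2 called it fallen under both vectors. With both libraries left out 1 rose and 4 fell for Ad-Hif1a (14.2% and 13.4% of all genes), and 1 and 5 for Ad-Hif2a (14.4% and 14.3%).

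Ad-Hif2a and Ad-Hif1a were then compared directly. Among the 38 genes 0 passed by edgeR, as among all 14413 (0% risen and 0% fallen), and at an unadjusted p under 0.05 there were 0 of the 38 and 338 (2.35%) of all genes. DESeq2 called 19 genes and the fit without the replicate block 2, with none of the 38 among them. The log2 differences of the 38 ran from −0.37 to 0.48, with standard errors of 0.13 to 0.50. Differences of the size of these errors were not detectable with 3 libraries per group, and larger ones could be missed too. Car12, outside the 38, did not pass at a log2 difference of 1.30 ± 0.33 (unadjusted p = 0.00488, edgeR). For the genes that rose most, the difference of Ad-Hif2a from Ad-Hif1a was −0.04 ± 0.21 for Slc16a1, −0.13 ± 0.38 for Slc16a3, 0.14 ± 0.17 for Slc2a1 and −0.11 ± 0.27 for Pfkl. Pdk1 had the lowest unadjusted p of the 38, at 0.0706, with a log2 difference of −0.33 ± 0.16 and an adjusted p of 1. All Ad-Hif2a libraries lay below all Ad-Hif1a libraries for Pdk1 and Slc2a3, 2 of the 38 against 3.21% of all genes, and none lay above for any of the 38 (3.07% of all genes). Gpi1, Pkm, Ldha, Pfkfb4 and Pdk1, which passed against Ad-C with Ad-Hif2a and not with Ad-Hif1a, were thus not shown to differ between the vectors. Without the replicate block Pkm (adjusted p = 0.0179) and Ldha (adjusted p = 0.0204) passed with Ad-Hif1a too.

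The 2 libraries that stood apart did so in the same way. Ad-Hif1a replicate 1 was the highest of its group for 23 of the 38 genes and the lowest for 13, and Ad-Hif2a replicate 3 the highest for 24 and the lowest for 10. Across the 38 genes, the departure of the first from its other replicates and that of the second from its own had a Pearson r of 0.905 and a Spearman rho of 0.900, beside 0.610 and 0.694 over all 14413 genes. Genes are not independent replicates, and these values are a description. Genes high in both included Pgam2, Slc16a3, Eno3, Tpi1, Pfkl, Pkm, Ldhb and Aldoa, and genes low in both included Pgm2, Gbe1, Pfkfb2, Pfkfb3, Pdk4 and Slc16a1. The departures ran with base composition among the 38 genes (Spearman rho with transcript GC content 0.737 and 0.717) and less with transcript length (−0.345 and −0.394), while over the 12879 tested genes with a transcript the values were 0.456 and 0.335 for GC content and −0.508 and −0.482 for length. Their part in the departures was not tested.

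**Figure D4:**
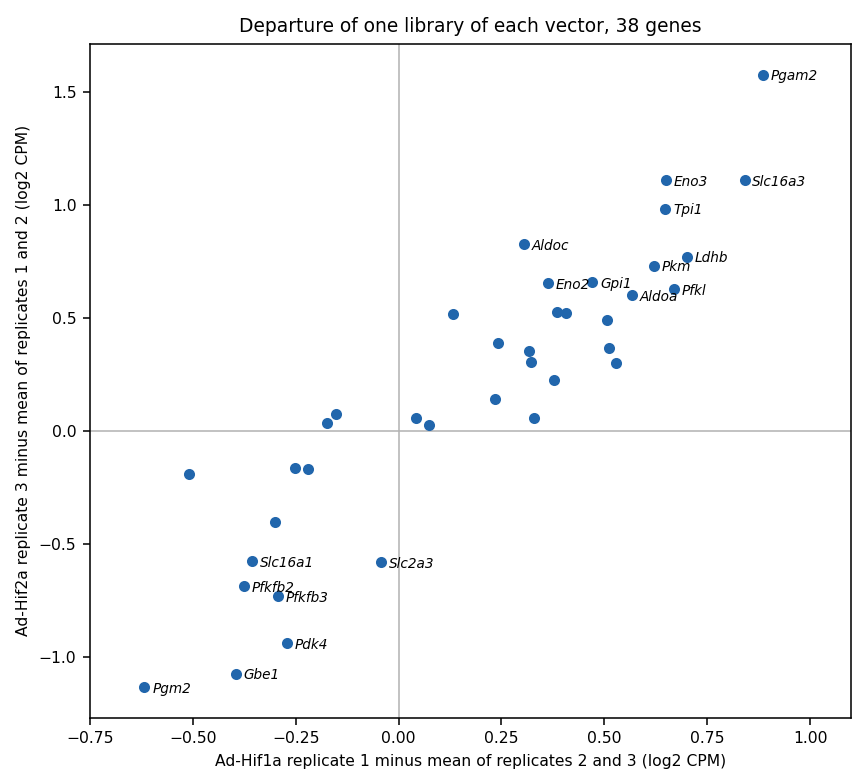
Departure of Ad-Hif1a replicate 1 (horizontal axis) and of Ad-Hif2a replicate 3 (vertical axis) from the mean of the other replicates of its group, in log2 CPM, for the 38 genes; each point is a gene. The points run from Pgm2 at the lower left to Pgam2 at the upper right, with a Pearson r of 0.905.

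The sum over the 19 enzymes of the chain shows the weight of these libraries. It was 6883, 5466 and 4485 CPM in Ad-Hif1a replicates 1, 2 and 3 and 5048, 4591 and 6898 in those of Ad-Hif2a, against 3357, 3283 and 3211 in those of Ad-C. All vector libraries were above all Ad-C libraries. Within each vector group the library with the highest sum was the one with the lowest levels of both Hif1a and Epas1. For several of these enzymes reads cannot be placed with certainty, since other annotated genes hold many of the 31-base words of their transcripts: 77.2% for Eno1, 68.3% for Pgk1, 50.9% for Pkm, 42.1% for Pgam1, 41.4% for Ldhb, 34.2% for Aldoa, 34.2% for Ldha, 32.1% for Gpi1 and 18.2% for Tpi1. Among the other members Pfkfb2 had 26.8%. How the authors' counting divided such reads is not given in the sources used here. For Slc16a1, Slc16a3 and Slc2a1 the share was 0%.

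**Figure D5:**
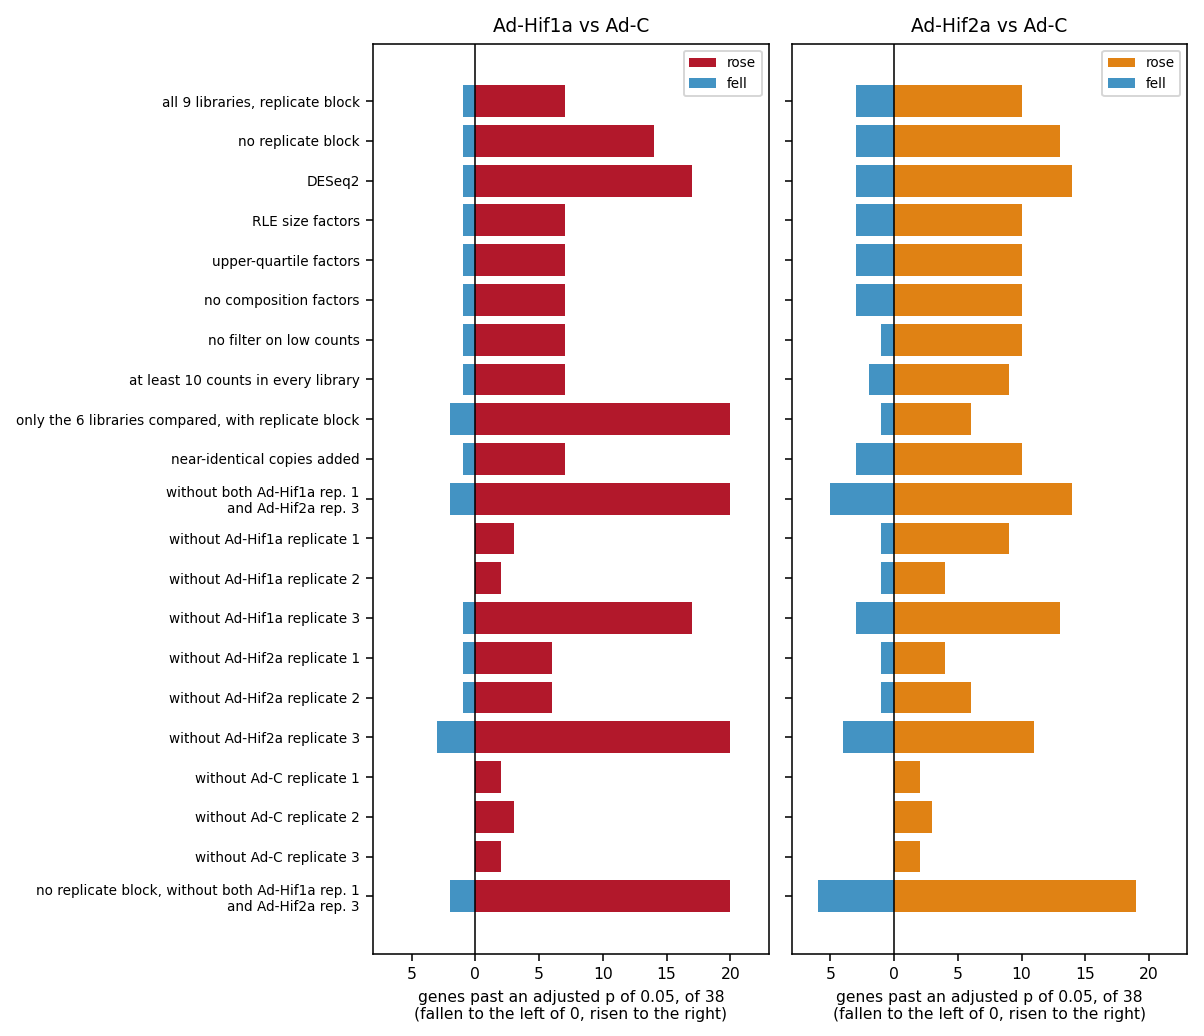
Number of the 38 genes past an adjusted p of 0.05 (horizontal axis, risen to the right of 0 and fallen to the left) with Ad-Hif1a (left panel) and Ad-Hif2a (right panel) against Ad-C, under each processing setting (vertical axis). The risen count runs from 2 to 20 with Ad-Hif1a and from 2 to 19 with Ad-Hif2a. The share risen over all genes runs from 2.06% to 18.1% and from 2.89% to 18%.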

How the data were processed

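Sequencing used 9 CORALL libraries of total RNA. The authors deposited whole-number counts per gene symbol, not normalized. The submitters' processing notes name bcl2fastq 2.20.0.422, fastp, STAR, Salmon and GRCm39, and roles and settings are not given in the sources used here. Totals were 16239634 to 17696512 counts with Ad-Hif1a, 14372589 to 17517897 with Ad-Hif2a and 17444224 to 18623403 with Ad-C.

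The analysis ran in edgeR 4.0.16 under R 4.3.3: filterByExpr on the 3 groups (14413 genes), TMM, robust quasi-likelihood fit of all 9 libraries with group and replicate number as terms (the study's methods name a paired test), and Benjamini-Hochberg adjustment over all genes at 0.05. Levels are TMM-scaled CPM, and departures are on log2 CPM with a prior count of 2. The fit was also run on counts simulated from the Ad-C means. That simulation held no replicate effects and no libraries that stand apart, so it gives no support to the calls here. Alternatives used other factors, filters, samples and DESeq2 1.42.0. Exon lengths and 31-base words come from GENCODE M21, and promoters from RefSeq, both of earlier builds than the authors'.

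The members and lists were chosen with earlier results of these data known. Library values are given for members past the threshold in any comparison and for Slc2a1, Hk2, Pfkfb3, Ldha, Pdk1 and Slc16a3. Those of Pgam2 are given outside this rule, chosen after its values were seen. From each further list the 2 genes with the lowest adjusted p are named.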

Additional observations from a re-analysis of the deposited data

How the results depend on the processing

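Among the 14 genes named by the rule none changed direction in any alternative, and 381 of their values stayed on their side of the threshold while 100 lost the call and 19 gained it. Other members did, such as Pgam2, whose log2 fold change ran from −0.82 to 0.10 for Ad-Hif1a and from −1.02 to 0.17 for Ad-Hif2a, and Pdk4, Slc2a3 and Aldoc, which passed in no setting. With all 9 libraries the 38 genes gave 7 risen and 1 fallen for Ad-Hif1a, and 10 and 3 for Ad-Hif2a (1624 and 2247 genes of all). RLE and upper-quartile factors, no composition factors, at least 10 counts in every library and near-identical copies added kept all these counts within 1.5 times.

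Without the replicate block 14 rose with Ad-Hif1a (8.53% of all genes), and 3452 genes of all changed with Ad-Hif2a and 2 between the vectors. The numbers did not visibly pair the libraries: deviations of same-numbered libraries correlated at −0.575 to 0.0980, and not every library correlated best with its own number. The libraries that stood apart, Ad-Hif1a replicate 1 and Ad-Hif2a replicate 3, correlated at 0.610 with each other and weigh on these values. Whether the numbers mark paired cultures therefore cannot be told from them. With DESeq2 17 rose and 1 fell with Ad-Hif1a (8.74% and 8.4% of all genes), and 14 and 3 with Ad-Hif2a (12.7% and 11.8%). It added Gpi1, Pfkfb3, Pgk1, Pgam1, Eno1, Eno3, Pkm, Ldha, Pgm1 and Gys1 with Ad-Hif1a. With Ad-Hif2a it added Pfkfb3, Aldoa, Eno1 and Eno3. In that fit 2470, 3525 and 19 genes of all changed with Ad-Hif1a, with Ad-Hif2a and between the vectors. With only the 6 libraries compared, Ad-Hif1a gave 20 risen and 2 fallen (17% and 16.5%, 4706 of all), and Ad-Hif2a 6 and 1 (6.19% and 5.93%). With no filter on low counts 10 rose and 1 fell with Ad-Hif2a (4.55% and 4.33% of 24731 genes), and 2 genes of all differed between the vectors. Without Ad-Hif1a replicate 1 and Ad-Hif2a replicate 3, Ad-Hif1a gave 20 risen and 2 fallen (14.2% and 13.4%, 4022 of all). Ad-Hif2a gave 14 and 5 (14.4% and 14.3%, 4173 of all), and 11 of all differed between the vectors. Without the replicate block as well, these were 20 and 2 (14.8% and 13.5%, 4112 of all), 19 and 6 (18% and 16.8%, 5055 of all), and 8. Both settings leave out libraries picked for their values in these data, and the second was itself chosen after seeing the data. The cause was not tested.

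Leaving out 1 library gave 2 to 20 risen and 0 to 3 fallen with Ad-Hif1a (441 to 5330 of all), 2 to 13 risen and 0 to 4 fallen with Ad-Hif2a (688 to 3309 of all), and 0 to 12 of all between the vectors. A group left with 2 libraries takes its spread from the whole fit. Depth was 14372589 to 18623403 counts a library, and genes at a few CPM, such as Slc2a3, Pfkfb1 and Aldoc, were the least precise.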

Other observations

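Branches that leave the glycolytic chain were counted in the same fit. Over all genes tested it called 6.04% risen and 5.22% fallen with Ad-Hif1a, and 7.87% and 7.72% with Ad-Hif2a. At an unadjusted p under 0.05 the shares were 26.2% and 33.9%. DESeq2 called 8.74% risen and 8.4% fallen with Ad-Hif1a, and 12.7% and 11.8% with Ad-Hif2a. Without the 2 libraries that stood apart edgeR called 14.2% and 13.4%, and 14.4% and 14.3%. In the hexosamine branch and UDP-glucose use, 6 genes were tested and 1 rose under each vector. It was Gfpt2, which draws fructose-6-phosphate into amino sugars, at 114, 104 and 90.96 CPM with Ad-Hif1a and 98.8, 108 and 101 with Ad-Hif2a, against 32.3, 30.8 and 32.4 with Ad-C (log2 fold change 1.69 ± 0.15 and 1.69 ± 0.15, adjusted p = 0.00078 and 0.000574, edgeR). Ugdh, which makes UDP-glucuronate, was at 0.27 ± 0.13 and 0.42 ± 0.13 and did not pass, but DESeq2 called it with Ad-Hif2a, and it rose under both vectors without the 2 libraries that stood apart. In the pentose phosphate pathway 0 of 8 genes passed under either vector by edgeR, 1 was higher at an unadjusted p under 0.05 under each, and DESeq2 called 0 with Ad-Hif1a and 1 with Ad-Hif2a. Pgd, which makes NADPH, was at a log2 fold change of 0.77 ± 0.31 and 1.02 ± 0.32 (adjusted p = 0.174 and 0.0716), and Pgls, the lactonase before it, at 0.71 ± 0.58 and 1.13 ± 0.60. Pgd rose under both vectors without the 2 libraries that stood apart. In the glycerol phosphate shuttle and serine branch 0 of 10 genes passed with Ad-Hif1a by edgeR (2 lower at an unadjusted p under 0.05, 0 by DESeq2). With Ad-Hif2a 1 fell, Gpd1l, which is related to glycerol-3-phosphate dehydrogenase, at −0.64 ± 0.15 (adjusted p = 0.0267) beside −0.32 ± 0.15 with Ad-Hif1a. Psph, the last enzyme of serine synthesis, was at −0.42 ± 0.17 and −0.55 ± 0.18. Without those 2 libraries Psph and also Psat1, another enzyme of serine synthesis named after its values were seen, fell with Ad-Hif2a.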
